A study of Mus with 9 samples.

Results

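The replication-dependent histone genes were followed through the hippocampus of SAMR1, SAMP8 and TG-treated SAMP8 mice. They were taken as every probe set with a gene symbol that begins with Hist, a cluster number from 1 to 4 and h, which gave 66 of the 22206 probe sets in the deposited tables. These 66 probe sets name 69 histone gene symbols, 59 of them naming a single symbol and 7 naming several. All 69 symbols were found in the RefSeq annotation of GRCm38, where 62 of the 69 loci span at most 1000 bases.

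Histones are the proteins around which DNA is wound. A pair each of H2A, H2B, H3 and H4 forms the nucleosome core, and the linker histone H1 binds where DNA enters and leaves it. The replication-dependent genes supply new histones during S phase, lie in clusters of many near-identical short copies, and give mRNAs that end in a conserved stem-loop in place of a poly(A) tail. Their mRNAs are known to be abundant in dividing cells, and in the adult hippocampus dividing cells are a minority, mainly progenitors of the dentate gyrus and of glia. Some of these genes, Hist1h1c and Hist1h2bc among them, are known to give polyadenylated mRNA in differentiated cells as well.

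The SAMP8 mouse is an inbred strain with accelerated senescence and early loss of memory, and SAMR1 is the related strain that ages normally and served as its control. The 3 groups were SAMR1 given vehicle, SAMP8 given vehicle, and SAMP8 given trigonelline (TG), a plant alkaloid, in oral doses of 5 mg/kg daily over 30 days. The vehicle is saline in the sample records and water in the study's methods. The SAMP8 mice were males aged 16 weeks by the study's methods, which do not state the sex or age of SAMR1. All groups were then tested in the water maze, over 8 days during which TG was continued. The methods do not state the age at which the hippocampi were taken, which was after these steps. RNA of 3 hippocampi per group was measured on Clariom S Mouse arrays, 9 arrays in all. Groups follow the titles of the sample records, whose tissue and source entries fit them. Their description entries instead name RAW264 macrophages treated with LPS, and the series record speaks of duplicates, so the labels conflict in part. Because SAMR1 and SAMP8 are separate inbred strains, the strain comparison covers every genetic difference between them.

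The deposited tables hold 1 value per group and probe set, the authors' average of the 3 arrays on a log2 signal scale, and no value per array. They also list the authors' own p-values, which were not used here. Without values per array no spread between mice could be computed, so the differences below are given without a test and without an error. As a scale for their size, the same measure is given over all 22206 probe sets. A difference of 0.585 on the log2 scale is 1.5-fold, and a probe set at or past it is called higher or lower. Counts are also given at a smaller limit of 0.32 on that scale and at 2-fold. SAMP8 enters both the strain comparison and the treatment comparison with 1 and the same average, and the difference between TG-treated SAMP8 and SAMR1 is the sum of the other two, so these are not independent of each other. In whole tissue, fewer cells of a type cannot be told apart from less RNA per cell. Signals of different probe sets depend on their probes and were not compared as amounts of RNA. Sums of linear signal over a marker list are weighted to its brightest probe sets and are not amounts of RNA either.

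Markers of forebrain excitatory neurons were among the brightest probe sets. Camk2a, a kinase of excitatory neurons, averaged 19.93 in each of the 3 groups, which is the highest value in the tables, and Syt1, a synaptic vesicle protein, averaged 19.70 in each. Slc17a7, the vesicular glutamate transporter, averaged 18.02 in SAMR1, 18.12 in SAMP8 and 18.11 with TG. Of the markers of hippocampal fields, Prox1, of dentate granule cells, averaged 11.26 in SAMR1 and 11.85 in SAMP8 and was lower with TG by 0.85. Wfs1, of CA1 pyramidal cells, averaged 10.79, 11.23 and 10.75. The medians of all probe sets were 6.09, 6.04 and 6.07 in that order.

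Histone probe sets were higher in TG-treated than in untreated SAMP8 mice in most cases, and the core histones H2A, H3 and H4 had larger median differences than H2B and H1. The share of probe sets that were higher was 70% in H3, near the 72.22% of H2B. Of the 66 probe sets, 53 had the higher average in TG-treated SAMP8, which is 80.3%, against 50% of all probe sets. The median difference was 0.33 on the log2 scale, with quartiles of 0.08 and 0.47, against a median of 0.01 and quartiles of -0.19 and 0.20 over all probe sets. Past the smaller limit of 0.32, 34 histone probe sets were higher, or 51.5%, against 15.1% of all probe sets, and 3 were lower against 14.2%. At least 1.5-fold higher were 10, or 15.2%, against 4.48%, and 1 was lower by as much, against 3.74%. At 2-fold, 2 were higher against 0.473% and 0 were lower against 0.342%.

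The strain comparison gave no such difference. Of the 66 histone probe sets, 32 were higher in SAMP8 than in SAMR1, or 48.5%, against 49.5% of all probe sets, with a median difference of -0.005 against 0.00. Past 0.32, 8 were higher against 16% of all probe sets and 9 were lower against 16.5%. At the 1.5-fold limit 2 were higher against 5.00% and 1 was lower against 6.08%, and at 2-fold 1 was higher against 0.838% and 0 were lower against 1.47%. The share past each limit was below that of all probe sets in both directions, except for the single probe set that was 2-fold higher.

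Against SAMR1, TG-treated SAMP8 had the higher average in 52 histone probe sets, or 78.8%, against 48.1% of all probe sets, with a median difference of 0.30 against -0.01. Past 0.32, 29 were higher against 16.1% and 5 were lower against 16%. At 1.5-fold 15 were higher, or 22.7%, against 5.62%, and 0 were lower against 4.83%. At 2-fold 1 was higher against 1.13% and 0 were lower against 0.712%. The TG-treated group had the highest of the 3 averages in 47 of the 66 histone probe sets, or 71.2%, against 31.4% of all probe sets. The treated averages of these genes therefore mostly lay above those of both vehicle groups rather than between them.

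**Figure D1:**
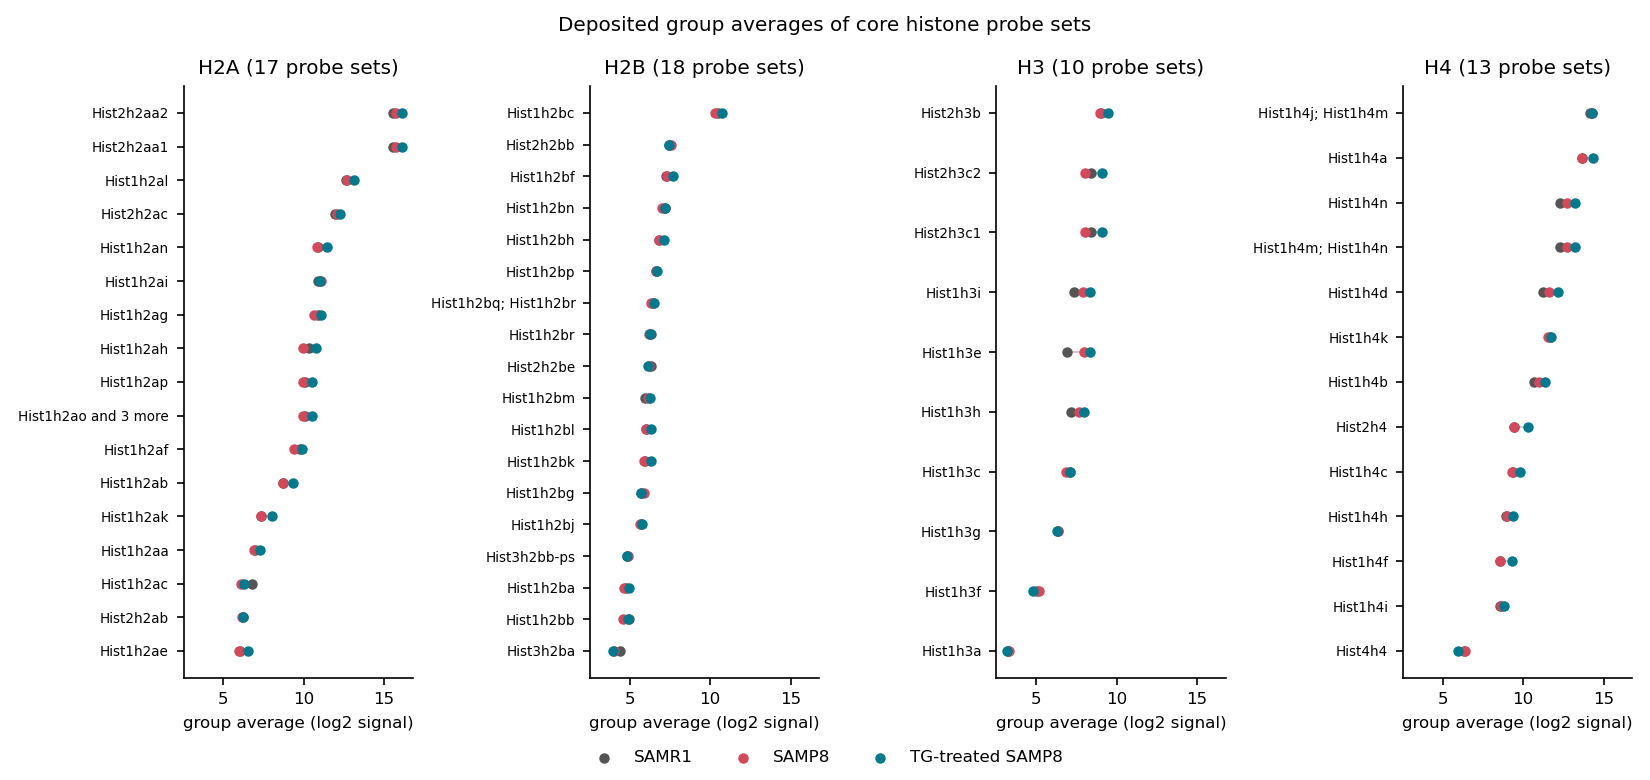
Group averages (log2 signal, x axis) of the core histone probe sets, 1 line per probe set, grouped by histone type and ordered by mean signal, with SAMR1 in grey, SAMP8 in red and TG-treated SAMP8 in blue-green. Each point is the authors' average of 3 arrays, so no error can be drawn, and the treated point lies furthest to the right for 15 of 17 H2A, 10 of 18 H2B, 7 of 10 H3 and 12 of 13 H4 probe sets.

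H4, which pairs with H3 in the nucleosome core, had the largest median difference of the histone types under treatment. Of 13 H4 probe sets 12 were higher in TG-treated SAMP8, with a median difference of 0.47. Among them 3 were at least 1.5-fold higher, against 4.48% of all probe sets. Hist2h4 (chr3:96262934-96263317) averaged 9.42 in SAMR1, 9.41 in SAMP8 and 10.28 with TG, a difference of 0.87 between the SAMP8 groups. The vehicle groups were nearly equal and the treated group stood above both. Hist1h4f (chr13:23551286-23551668) averaged 8.57, 8.57 and 9.29 in the same order, a treatment difference of 0.72. Hist1h4a (chr13:23760795-23761249) averaged 13.66, 13.68 and 14.34, a treatment difference of 0.66. Both again had equal or nearly equal vehicle averages.

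Another 4 H4 probe sets were already higher in SAMP8 than in SAMR1 and higher again with TG. Hist1h4d (chr13:23581568-23581969) averaged 11.24 in SAMR1, 11.62 in SAMP8 and 12.16 with TG. Hist1h4b averaged 10.65, 10.97 and 11.36. The probe set of Hist1h4n and the probe set shared by Hist1h4m and Hist1h4n gave identical values of 12.31, 12.74 and 13.21 and cannot be counted as separate observations. In these the difference between treated SAMP8 and SAMR1, 0.92 for Hist1h4d, 0.71 for Hist1h4b and 0.90 for Hist1h4n, was made of a strain step and a treatment step of similar size. Among the others, the vehicle averages of Hist1h4c, Hist1h4h and Hist1h4i were close to each other and the treated average was above them. Hist1h4c averaged 9.39, 9.32 and 9.83. Hist1h4h averaged 8.93, 8.97 and 9.39. Hist1h4i averaged 8.56, 8.62 and 8.81. Hist1h4k was lowest in SAMP8, at 11.70, 11.52 and 11.76. The probe set shared by Hist1h4j and Hist1h4m, the brightest of the type, differed little, at 14.15, 14.27 and 14.31. The exception was Hist4h4 (chr6:136803993-136804431), the only member of the fourth cluster, which lies alone on its chromosome and averaged 6.30 in SAMR1, 6.41 in SAMP8 and 5.96 with TG, a treatment difference of -0.45.

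H2A, the core histone exchanged most readily together with H2B, was higher in the treated group for 16 of 17 probe sets. The median difference was 0.41, and 5 were at least 1.5-fold higher, against 4.48% of all probe sets. Hist1h2ah (chr13:22035122-22035643) averaged 10.34 in SAMR1, 9.93 in SAMP8 and 10.76 with TG. It was lower in SAMP8 than in SAMR1 by 0.41 and higher with TG by 0.83, so the treated average lay above that of SAMR1 by 0.42. Hist1h2ak (chr13:21753377-21753912) averaged 7.33, 7.32 and 8.05, a treatment difference of 0.73. Hist1h2ab (chr13:23751088-23751592) averaged 8.71, 8.72 and 9.35 and Hist1h2an (chr13:21786774-21787248) averaged 10.87, 10.82 and 11.45, a treatment difference of 0.63 in each. Hist1h2ae (chr13:23570663-23571220) averaged 6.05, 5.96 and 6.56, a treatment difference of 0.60. In Hist1h2ak, Hist1h2ab, Hist1h2an and Hist1h2ae the vehicle averages lay within 0.09 of each other.

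The brightest histone probe sets on the array were those of Hist2h2aa1 (chr3:96245497-96246052) and Hist2h2aa2 (chr3:96239779-96240374), neighbouring copies whose values were identical, at 15.54 in SAMR1, 15.74 in SAMP8 and 16.12 with TG. Their difference between treated SAMP8 and SAMR1 was 0.58, just under the 1.5-fold limit. Hist1h2al, which RefSeq lists as a transcribed pseudogene far from the other copies (chr13:51200084-51203066), averaged 12.63, 12.71 and 13.12. Hist2h2ac averaged 11.94, 12.09 and 12.24. Hist1h2ap and the probe set that lists Hist1h2ao, Hist1h2ap, Hist1h2ai and Hist1h2ah shared 1 set of values, 10.10, 9.95 and 10.49. Hist1h2ag averaged 10.86, 10.66 and 11.04, and Hist1h2af averaged 9.76, 9.42 and 9.88, both lowest in SAMP8.

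The probe set of Hist1h2ai alone averaged 10.89, 11.04 and 11.03 and was the 1 H2A probe set that was not higher in the treated group. Hist2h2ab differed little between the groups, at 6.23, 6.17 and 6.25. Hist1h2aa, a copy known from testis, averaged 6.95, 6.93 and 7.26. The largest negative strain difference of all histone probe sets belonged to Hist1h2ac (chr13:23683473-23683959), which averaged 6.75 in SAMR1, 6.09 in SAMP8 and 6.27 with TG. SAMP8 was lower by 0.66 there, the treatment difference was 0.18, and both SAMP8 groups lay below SAMR1.

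H3 probe sets were the least uniform. Of 10, 7 were higher in TG-treated than in untreated SAMP8, with a median difference of 0.355, and differences ran from -0.38 to 1.01. Hist2h3c1 (chr3:96246685-96247348) and Hist2h3c2 (chr3:96238479-96239127), neighbouring copies with identical values, averaged 8.39 in SAMR1, 8.06 in SAMP8 and 9.07 with TG. Their treatment difference of 1.01, 2.01-fold, was the largest of the 66 probe sets, and with values that cannot be told apart it amounts to a single observation. Hist2h3b, a further copy of the same cluster, averaged 9.02, 8.99 and 9.45.

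Hist1h3e (chr13:23561475-23562385) had the largest strain difference of the 66, with averages of 6.92 in SAMR1, 7.95 in SAMP8 and 8.31 with TG. SAMP8 was above SAMR1 by 1.03, or 2.04-fold, and the treated group stood 0.36 higher again, for 1.39 over SAMR1. Hist1h3i (chr13:21782915-21783397) averaged 7.37, 7.91 and 8.36 and Hist1h3h (chr13:21717628-21718115) averaged 7.13, 7.64 and 7.99. These followed the same order of groups, with strain differences of 0.54 and 0.51 and treatment differences of 0.45 and 0.35. Hist1h3c averaged 7.10, 6.83 and 7.11, lowest in SAMP8. Hist1h3g, at 6.37, 6.34 and 6.31, and Hist1h3a, at 3.26, 3.30 and 3.17, differed by little. Hist1h3f (chr13:23544052-23544954) averaged 5.07, 5.15 and 4.77 and was lower with TG by 0.38.

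H3 is made in replication-dependent forms H3.1 and H3.2, which differ in a cysteine. The 4 probe sets of H3.1 genes (Hist1h3a, Hist1h3g, Hist1h3h and Hist1h3i) had a median treatment difference of 0.16, and the 6 of H3.2 genes 0.41. With 1 pair of identical probe sets in the second group and a range that spans zero in both, no order of the forms was read from this.

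H2B probe sets, of the core histone that pairs with H2A, had smaller treatment differences than the H2A probe sets. Of 18, 13 were higher in the treated group, with a median difference of 0.145. In either direction 0 passed 1.5-fold, against 4.48% higher and 3.74% lower of all probe sets. A count of 0 among 18 is near those shares. The highest were Hist1h2bk, at 5.94 in SAMR1, 5.87 in SAMP8 and 6.34 with TG, and Hist1h2bc, at 10.51, 10.30 and 10.75, with treatment differences of 0.47 and 0.45. Hist1h2bc is by far the brightest probe set of the type. Another 5 were higher by between 0.31 and 0.38. Hist1h2bf averaged 7.23, 7.33 and 7.71. Hist1h2bh averaged 6.83, 6.79 and 7.13, and Hist1h2bl 6.02, 5.98 and 6.31. In both, the treated group stood above a pair of nearly equal vehicle averages. Hist1h2bb averaged 4.93, 4.55 and 4.86, lowest in SAMP8. The testis copy Hist1h2ba averaged 4.79, 4.61 and 4.96.

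The remaining H2B probe sets lay within 0.20 of untreated SAMP8. Those of the first cluster ran from -0.15 for Hist1h2bg, at 5.72, 5.87 and 5.72, to 0.20 for the probe set of Hist1h2bq and Hist1h2br, at 6.45, 6.32 and 6.52. Between them lay Hist1h2bj, Hist1h2bm, Hist1h2bn, Hist1h2bp and the probe set of Hist1h2br alone. Hist2h2bb averaged 7.45, 7.56 and 7.46, and Hist2h2be, whose locus is longer than those of its neighbours, averaged 6.30, 6.19 and 6.10. Hist3h2ba averaged 4.37 in SAMR1, 4.00 in SAMP8 and 3.93 with TG, and the pseudogene Hist3h2bb-ps averaged 4.82, 4.86 and 4.83.

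The linker histones differed from the core types. Of the 5 H1 probe sets 3 were higher in the treated group, with a median difference of 0.08. A further 1 was 1.5-fold lower, against 3.74% of all probe sets. Hist1h1c (chr13:23738807-23739531), the gene of H1.2, averaged 3.98 in SAMR1, 4.38 in SAMP8 and 3.56 with TG, a treatment difference of -0.82. It was the only histone probe set lower by 1.5-fold with TG, and its signal lies among the dimmest 25% of the array. The other somatic forms were within 0.15 of untreated SAMP8. Hist1h1a averaged 5.50, 5.64 and 5.52. Hist1h1b averaged 5.00, 5.22 and 5.30. Hist1h1d averaged 5.80, 5.42 and 5.57, highest in SAMR1. Hist1h1t, the testis form, averaged 3.95, 3.38 and 3.47, a strain difference of -0.57. The H1 median against SAMR1 was -0.23, in the opposite direction to every core type.

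Another 3 probe sets name histones of several types or a further gene. The probe set of Hist1h2ad, Hist1h3b and Hist1h3d averaged 11.69, 11.99 and 11.94, and that of Hist1h2be and Hist1h1e 4.06, 4.31 and 4.39. The probe set of Hist3h2a also names Trim17, a ubiquitin ligase gene, and averaged 8.44 in SAMR1, 9.14 in SAMP8 and 9.15 with TG. SAMP8 was higher there by 0.70, and which of the genes gave the signal cannot be read from these values.

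**Figure D2:**
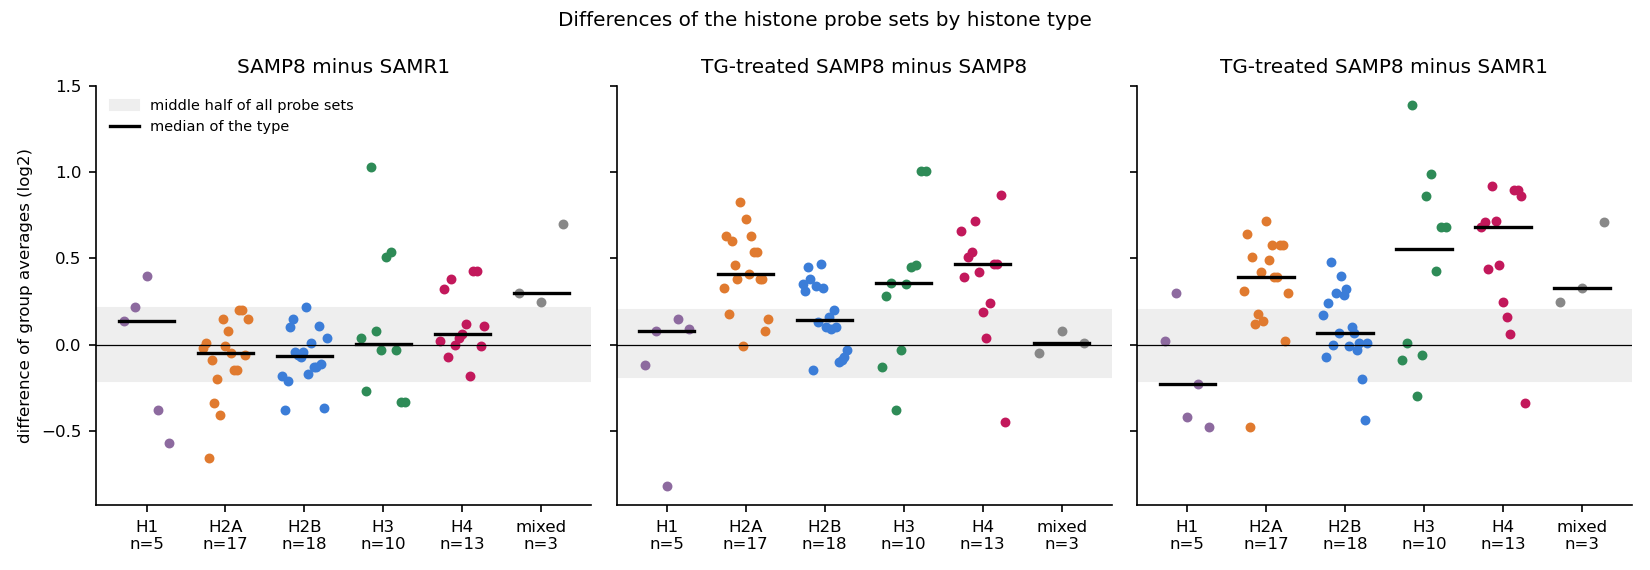
Differences of group averages (log2, y axis) of the 66 histone probe sets by histone type, with a panel for each of the 3 comparisons. Points are probe sets, black bars are medians of a type, and the grey band runs from the first to the third quartile of all 22206 probe sets. In the treatment panel the medians of H2A (0.41), H3 (0.355) and H4 (0.47) lie above the band, and those of H1 (0.08) and H2B (0.145) lie inside it.

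By type, then, the strain medians were 0.14 for H1, -0.05 for H2A, -0.065 for H2B, 0.005 for H3 and 0.06 for H4, the last of which turned to -0.073 when the 3 averages were quantile normalized. The medians of treated SAMP8 over SAMR1 were 0.39 for H2A, 0.07 for H2B, 0.555 for H3 and 0.68 for H4. Of the 15 probe sets that were 1.5-fold higher in treated SAMP8 than in SAMR1, 7 were H4, 5 were H3, 2 were H2A, 1 was the probe set shared with Trim17, and 0 were H1 or H2B. With identical values counted once, these were 13, of which 6 were H4 and 4 were H3.

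Histone copies lie in 4 named clusters, and the treatment difference was spread over both of the large ones. Cluster Hist1, on chromosome 13, holds 52 probe sets, of which 44 were higher in the treated group, with a median of 0.335, 7 past 1.5-fold higher and 1 past 1.5-fold lower. Cluster Hist2, at chr3:96219885-96270192, holds 10 probe sets, of which 8 were higher, with a median of 0.38 and 3 past 1.5-fold. Over all probe sets, 4.48% were higher by that limit and 3.74% lower. Cluster Hist3, at chr11:58948911-58955192, holds 3 probe sets with treatment differences between -0.07 and 0.01, and Hist4 holds Hist4h4 alone. The strain medians were -0.005, -0.02 and 0.04 in Hist1, Hist2 and Hist3.

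The medians of a type differed between the large clusters. H4 had a median treatment difference of 0.47 over 11 probe sets of Hist1 and 0.87 in the 1 of Hist2. H3 had 0.28 over 7 probe sets of Hist1 and 1.01 over 3 of Hist2, and H2A 0.54 over 13 and 0.265 over 4. H2B had 0.255 over 14 probe sets of Hist1 and -0.095 over 2 of Hist2. The Hist2 values rest on few probe sets, of which 4 form the identical pairs above.

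Along chromosome 13 the loci fall into blocks separated by at least 100 kb. The block at chr13:21715711-21837530 holds 18 loci and 17 of the probe sets, 16 of which were higher with TG, with a median of 0.24. The block at chr13:22035122-22043658 holds 5 loci, all higher, with a median of 0.38. The largest block, at chr13:23531044-23764412, holds 29 loci and 26 probe sets, 19 of which were higher, with a median of 0.325. It contained each of the 5 chromosome 13 probe sets that were lower by more than 0.10, namely those of Hist1h1a, Hist1h1c, Hist1h2bg, Hist1h3a and Hist1h3f. The pair of testis copies Hist1h2aa and Hist1h2ba beyond it, at chr13:23933725-23934913, were higher by 0.33 and 0.35.

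Other genes within 500 kb of these blocks were mostly dim, many of them olfactory and vomeronasal receptors, so that few can be set beside bright histones. Their 61 probe sets had a median treatment difference of 0.07, and 37 were higher. Of the 61, 53 lay below the median signal of all probe sets, with a median difference of 0.07, and 8 lay above it, with 0.135. Past 1.5-fold, 3 were higher, against 4.48% of all probe sets, and 1 was lower, against 3.74%. Both counts lay near or below those shares. The probe set of LOC102641600 and Gm11273 averaged 9.66 in SAMR1, 9.47 in SAMP8 and 10.63 with TG, a difference of 1.16 that is larger than that of any histone probe set. The others were dim, with treatment differences of 0.70 for Olfr1359, 0.75 for Vmn1r198 and -0.77 for Vmn1r222. The strain median of the 61 was -0.10.

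**Figure D3:**
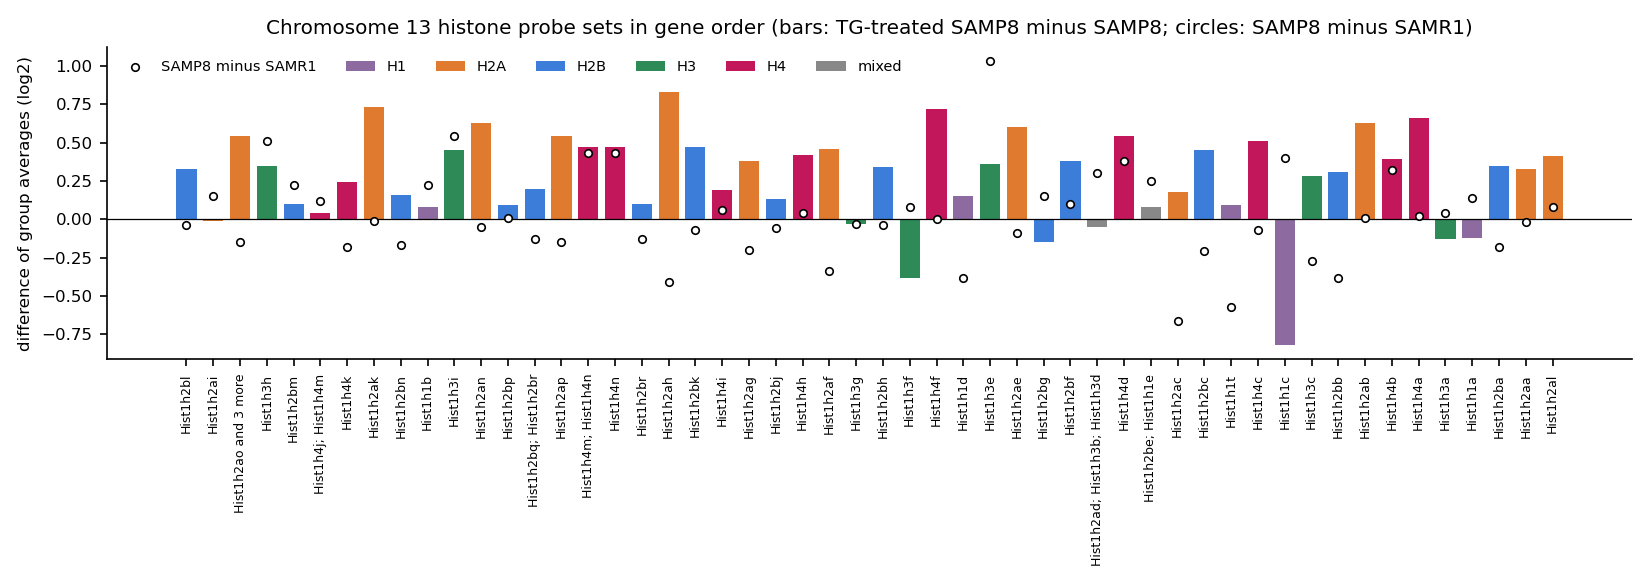
Differences of group averages (log2, y axis) of the chromosome 13 histone probe sets, in the order of the first base of their loci. Bars, coloured by histone type, give TG-treated SAMP8 minus SAMP8, and circles give SAMP8 minus SAMR1. Bars above zero run through every block, the deepest bar below zero is Hist1h1c (-0.82), and the highest circle is Hist1h3e (1.03).

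Many H2A and H2B genes are divergent neighbours that share a short promoter region. In 9 pairs in which each gene had a probe set of its own, the loci lay 164 to 281 bases apart. The H2A probe set had the larger treatment difference in 6 of the 9, with a median gap between partners of 0.25. The widest was Hist1h2ae, at 0.60, beside Hist1h2bg, at -0.15, followed by Hist1h2ak, at 0.73, beside Hist1h2bn, at 0.16, and Hist1h2an, at 0.63, beside Hist1h2bp, at 0.09. The order was the opposite for Hist1h2ai, at -0.01, beside Hist1h2bl, at 0.33, for Hist1h2ac, at 0.18, beside Hist1h2bc, at 0.45, and by 0.02 for the testis pair. In the strain comparison H2A had the larger value in 4 of the 9 pairs. The H2A probe set was also the brighter one in 8 of the 9.

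Brighter histone probe sets had larger treatment differences. With all probe sets divided into classes of 25% each by mean signal, 5 histone probe sets lay in the dimmest class, 10 in the next, 24 in the one above and 27 in the brightest. Their median treatment differences were -0.07, 0.105, 0.24 and 0.46 from the dimmest to the brightest class, against 0.04, 0.05, -0.02 and -0.06 for all probe sets. In the brightest class 25 of 27 histone probe sets were higher with TG, against 2242 of 5553 probe sets in all. Across the 66 histone probe sets Pearson's r between treatment difference and mean signal was 0.441, and across all probe sets it was -0.131. These are descriptions across probe sets that share the same arrays, and many of them near-identical sequence. For the strain difference r was 0.225 among the histones and 0.218 in all.

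H2B had few of the brightest probe sets, with 1 of its 18 in the brightest class, against 12 of 17 for H2A and 11 of 13 for H4. Another 10 of the 18 lay in the class below it. In that class below, which holds probe sets of each core type, the median treatment differences were 0.33 over 5 probe sets of H2A, 0.36 over 7 of H3, 0.13 over 10 of H2B and -0.13 over 2 of H4. The part of signal in the difference between types was not tested.

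**Figure D4:**
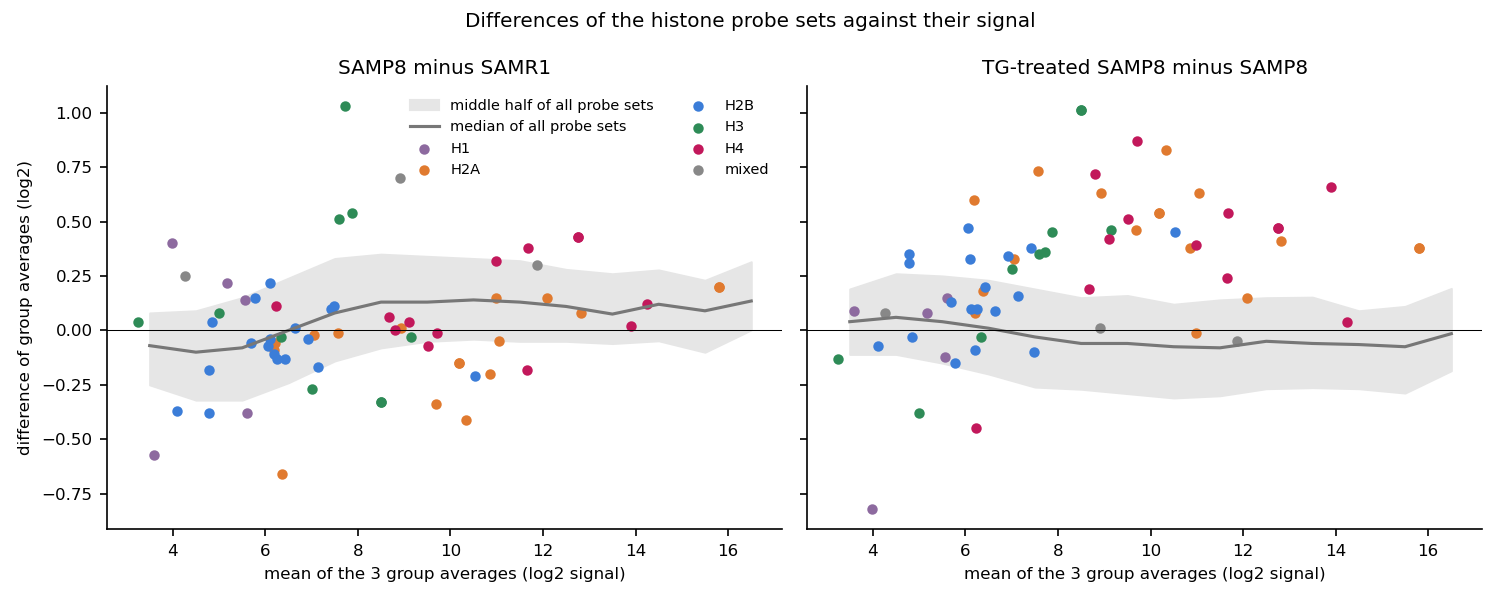
Difference of group averages (log2, y axis) against the mean of the 3 group averages (log2 signal, x axis) for the 66 histone probe sets, coloured by type, for SAMP8 minus SAMR1 and for TG-treated SAMP8 minus SAMP8. The grey line and band are the median and the quartiles of all probe sets in steps of 1 log2 unit. In the treatment panel most histones above a signal of 8 lie over the band, while the line for all probe sets lies slightly below zero there.

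Replication-independent histones, most of them made outside S phase from ordinary polyadenylated mRNAs, were compared next. Their 14 probe sets had a median treatment difference of 0.07. By 1.5-fold 0 were higher, against 4.48% of all probe sets, and 0 were lower, against 3.74%. H2afz, the gene of H2A.Z, was the highest, with averages of 11.38 in SAMR1, 11.66 in SAMP8 and 12.23 with TG, a treatment difference of 0.57. The H3.3 genes differed less, H3f3a at 10.20, 10.27 and 10.27 and H3f3b at 11.28, 12.12 and 11.96. In the strain comparison 3 of the 14 were 1.5-fold higher in SAMP8, against 5% of all probe sets. These were H3f3b by 0.84, H2afy, the gene of macroH2A1, by 0.86 and H2afv by 0.62.

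The factors that transcribe histone genes and cut their 3' ends, such as Npat, Slbp and the U7 snRNP, gave 25 probe sets with a median treatment difference of 0.00. Of the 25, 1 was 1.5-fold higher with TG, near the 4.48% of all probe sets. It was that of Coil and 2210409E12Rik, at 6.59 in SAMR1, 5.95 in SAMP8 and 6.64 with TG. Sympk, the scaffold of the cleavage complex and the brightest of the list, averaged 10.60, 10.94 and 10.54. The 8 factors of histone mRNA decay had a median of -0.07. Among them Zcchc6, a terminal uridylyltransferase, was 1.5-fold lower with TG, at 8.91, 9.22 and 8.62, and its relative Zcchc11 was lower in SAMP8 than in SAMR1, at 9.18, 8.47 and 8.76. The 19 probe sets of histone chaperones had a median of 0.08, and Ssrp1, a subunit of the FACT complex, was 1.5-fold lower with TG, at 10.04, 10.23 and 9.53. The decay and the chaperone list each had 1 probe set lower by 1.5-fold, against 3.74% of all probe sets.

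For genes of S phase and cell division the 31 probe sets had a median treatment difference of 0.01, with 17 higher. Past 1.5-fold were 0 in either direction, against 4.48% higher and 3.74% lower of all probe sets. Most of the 31 were dim, which limits a comparison with the brighter histones, since 23 lay below the median signal of all probe sets. Those 23 had a median of 0.12 and the other 8 a median of -0.085, against 0.08 for the 15 histone probe sets below that signal and 0.38 for the 51 above it. Pcna, the sliding clamp of DNA polymerase, averaged 11.86 in SAMR1, 11.95 in SAMP8 and 12.12 with TG. Ccne1, a cyclin of S phase entry, averaged 8.42, 8.27 and 8.68. Of the 8 probe sets above the median signal, 3 were higher with TG, Pcna and Ccne1 among them, and 5 were lower. In the strain comparison Ccne2 was higher in SAMP8 by 0.75 and Gins1, of the replicative helicase, lower by 0.66. Ccne2 had a treatment difference of -0.48. The 12 markers of neural progenitors and immature neurons had a median treatment difference of 0.02, with 0 past 1.5-fold against the same shares. Dcx, a marker of immature neurons, averaged 8.05, 8.12 and 8.15.

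Cytosolic ribosomal protein genes, chosen by symbol, and other genes of short span were set beside the histones, most of whose loci are short too. Span on the genome is not the length of the mRNA, which was not used. The genes of short span include mitochondrial genes, copies of ribosomal protein genes and a replication-independent histone gene. The 70 probe sets of cytosolic ribosomal proteins had a median treatment difference of 0.575, larger than that of the histones, with 67 higher and 34 past 1.5-fold, and a median strain difference of 0.065. The 292 probe sets of other protein-coding genes that span at most 1000 bases had a median treatment difference of 0.14, with 200 higher, 42 past 1.5-fold higher and 2 lower, and a median strain difference of -0.17. Most of these were dim, with 221 below the median signal of all probe sets and a median treatment difference of 0.09. The 71 above that signal had a median of 0.42, with 61 higher. The 51 histone probe sets above it had a median of 0.38, with 45 higher. Of all probe sets, 4.48% were 1.5-fold higher with TG and 3.74% lower. Families of predicted genes with similar names make up part of the list of 292. Of the 292, 43 carry the predicted names Gm20 or Gm21 followed by 3 digits, and all 43 were higher with TG, 23 of them past 1.5-fold, with a median of 0.60 and a strain median of -1.07. The other 249 had a median treatment difference of 0.10, with 19 past 1.5-fold higher and 2 lower. The part of gene length in the histone values was not tested.

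**Figure D5:**
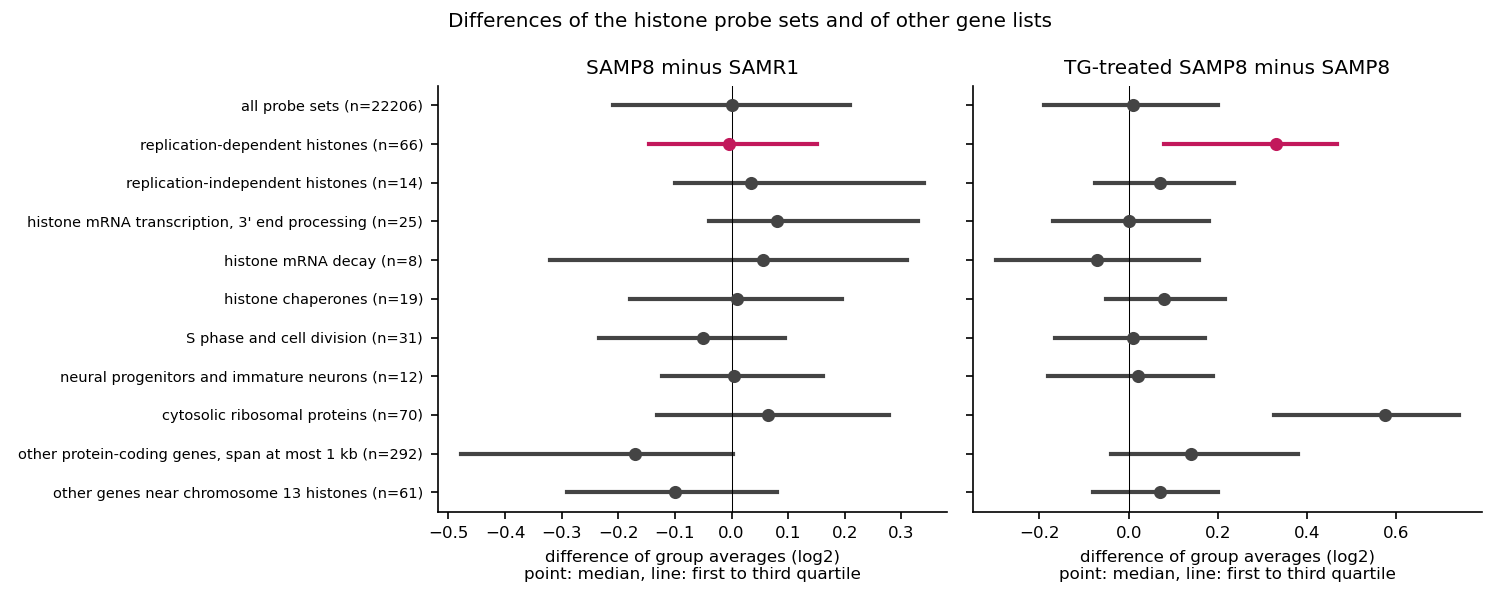
Median difference of group averages (point) with the first and the third quartile (line ends, log2, x axis) for the 66 histone probe sets, drawn in magenta, and for other gene lists, with the number of probe sets in parentheses. For the treatment the medians of the histones (0.33) and of the cytosolic ribosomal proteins (0.575) lie above the third quartile of all probe sets (0.20), while the quartile lines of the histones and of all probe sets overlap and the S phase median is 0.01. For the strain the histone median is -0.005.

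Markers of other cells in or around the hippocampus differed between the groups as well. Of 12 meningeal probe sets 9 were lower with TG, 5 of them by 1.5-fold (Dcn, Ogn, Foxc1, Slc22a6 and Slc13a4), the median was -0.435, and their summed linear signal was 2452 in SAMR1, 2112 in SAMP8 and 1394 with TG. Of the 9 microglial markers 6 were lower with TG and 3 higher, 1 of these past 1.5-fold (C1qa), with a median of -0.31. They summed to 3368, 5429 and 4384, but in the strain comparison 5 were higher in SAMP8 and 4 lower. Past 1.5-fold, 4 were higher in SAMP8, against 5% of all probe sets, and 2 were lower, against 6.08%. Choroid plexus markers, 8 in number, had a median of -0.105, with Ttr higher by 0.72 and Kl lower by 0.79, and summed to 11830, 14310 and 12550. The 7 erythroid probe sets had a median of -0.17 and summed to 5029, 5870 and 4629. The 6 markers of oligodendrocyte precursors, a dividing population, had a median of 0.09 and summed to 780.9, 949.7 and 1103. Of the 6, 3 were higher with TG, Sox10 at 0.69, Olig2 at 0.45 and Olig1 at 0.32. The other 3 were lower, Gpr17 at -0.28, Pdgfra at -0.26 and Cspg4 at -0.14. Of the 8 neuronal markers, Camk2a and Syt1 are at or near the top of the scale and cannot show a difference. The other 6 had a median of -0.09, with 2 higher with TG and 4 lower, among the latter Prox1 by 0.85 and Wfs1 by 0.48. Each sum is weighted to the brightest probe sets of its list. These include Enpp2 for the choroid plexus, at 13.45, 13.70 and 13.45, and P2ry12 for microglia, at 11.17, 12.03 and 11.60. Dcn is the brightest of the meningeal list and Olig2 of the oligodendrocyte precursor list. Over all probe sets, 4.48% were 1.5-fold higher with TG and 3.74% lower. No marker was at 0, since every probe set has a signal. The part of these cells in the histone values was not tested.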

How the data were processed

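Hippocampal RNA of 9 mice, 3 per group by the titles of the sample records, was labelled with the WT PLUS kit, which primes along the RNA and does not need a poly(A) tail, and hybridized to Clariom S Mouse arrays. The authors summarized the arrays by SST-RMA in Transcriptome Analysis Console (version 4.0.2 in the methods, 4.0.1 in the series record) and deposited 2 tables of 22206 probe sets with their group averages as log2 signal. The tables also hold the authors' own fold changes, p-values and adjusted p-values, which were not used. The SAMP8 average was equal in both tables for all 22206 probe sets, so the tables were joined.

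Differences are those of the deposited averages, which carry a rounding step of 0.01. With no value per array, no test was run here, and the number of arrays limits the precision. Histone type and cluster were read from symbols, and 3 probe sets of the tables have no symbol. Loci came from RefSeq (GRCm38.p6, the build of the files). Near-identical copies may share probe signal: 8 histone probe sets form 4 pairs with identical values, leaving 62 distinct ones. All histone probe sets are given, by value or by range. Of each list at most 4 genes with the highest signal are named, and those past 1.5-fold where 5 or fewer. Wfs1, as a field marker, and all markers of oligodendrocyte precursors are named beyond this rule. The list of genes spanning at most 1000 bases, its division by name and the division of lists at the median signal were defined after the files were seen. The histone probe sets and the lists were chosen with earlier results of these data known. Alternatives were limits of 0.32 on the log2 scale and of 2-fold, no probe sets in the lowest 25% of signal, 1 value per symbol, 1-symbol probe sets, median centring, quantile normalization, no pseudogenes or testis forms, and identical values counted once. The steps were tested on simulated data. Python 3.11.15 with numpy 2.4.6, pandas 2.3.3 and matplotlib 3.10.9 was used.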

Additional observations from a re-analysis of the deposited data

How the results depend on the processing

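The median treatment difference of the histone probe sets lay between 0.28 and 0.35 under the alternatives (0.33 as reported), that of the strain between -0.038 and 0.005, and that of treated SAMP8 over SAMR1 between 0.27 and 0.31. Of 75 alternative values of these medians and of the counts past the limit, 61 stayed within 0.05 (medians) or within 1.5 times (counts) of the reported value and 14 moved, 11 of them by the changed limit. At a limit of 0.32 on the log2 scale the counts were 8 higher and 9 lower for the strain, 34 and 3 for the treatment, and 29 and 5 for treated SAMP8 over SAMR1. At 2-fold they were 1 and 0, 2 and 0, and 1 and 0. Without the dimmest 25% of probe sets 0 were 1.5-fold lower with TG, since Hist1h1c lies among those left out. The strain count of 2 higher became 1 with 1-symbol probe sets, which leave out the probe set of Trim17 and Hist3h2a, and 1 with quantile normalization, which put that probe set at 0.57. Counting identical values once, an alternative chosen after seeing the data, left 9 probe sets 1.5-fold higher with TG and a median of 0.295 over 62. For treated SAMP8 over SAMR1 the 15 past 1.5-fold higher became 18 with median centring, 14 with quantile normalization and 13 with identical values counted once, and the 10 of the treatment became 12 with quantile normalization. No paired analysis was possible because the files hold only group averages, and for the same reason no array could be left out in turn. Differences of dim probe sets are the least certain, and how much any average owes to 1 mouse cannot be seen here.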
